A study of Mus musculus with 6 samples.

Results

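Keratins are the intermediate filament proteins of epithelial cells, and 9 keratin genes together with Trp63, the gene of the p53 family factor p63, were followed in mouse lung under cold. The 10 genes were chosen by name, as rows of the deposited table whose gene symbol matched, and all 10 were found among its 18174 rows. They were picked with the difference between cold and room temperature already known, so that difference is given for them as a description. RNA was sequenced from lung tissue of male wild type C57BL/6J mice, an inbred laboratory strain. The study asked how tyrosine hydroxylase positive nerve endings meet the lung epithelium. One group of 3 libraries came from mice kept at room temperature, and the other group of 3 from mice held at 4 °C for 6 h. The labels used here state no age, and they call the libraries biological replicates without tying each to its own animal, so p-values measure the spread between libraries. In tissue RNA, fewer cells of a type, less RNA per cell and a different part of the lung in the sample cannot be told apart.

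Keratin filaments are built from pairs, each of a type I (acidic) and a type II (basic) chain, and a chain without its partner is degraded. Basal cells, the stem cells at the base of the tracheal and large bronchial epithelium, carry p63 and the pair Krt5 and Krt14, with Krt15 and Krt17 in many of them. Simple epithelia such as secretory, ciliated and alveolar cells carry Krt8 and Krt18, often with Krt7 and Krt19, and mesothelium makes these too. Krt4 is a type II chain of stratified mucosa, where its partner is Krt13. In the mouse the type II genes Krt4, Krt5, Krt7 and Krt8 lie in a cluster on chromosome 15, which also holds the type I gene Krt18. The other type I genes, Krt14, Krt15, Krt17 and Krt19, lie in the cluster on chromosome 11, and Trp63 is on chromosome 16.

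The deposited unit is RPKM, which is reads divided by the gene's span in kilobases, introns counted in, and by library depth in M (mega) reads. All levels below are scaled RPKM, the deposited value divided by a composition factor of each library (0.856 to 1.13), unless another scale is named. Means are ± SD with n = 3 libraries per group. The log2 changes are cold minus room temperature from limma on log2 of scaled RPM (reads divided by depth in M reads) plus 0.5, with SE, and they understate the change of genes near 0.5 RPM. Depth recovered from the steps of the values ranged from 39.7 to 48.7 M reads at room temperature and from 32.8 to 35.1 M in cold. Over the 15238 genes tested, 70.5% were called at a Benjamini-Hochberg adjusted p under 0.05, 35.5% higher and 35% lower, and the median log2 change was 0.003. Marker levels of several cell types differed widely between groups. Summed levels of 10 endothelial markers were 3.81 to 48.3 at room temperature and 242 to 253 in cold, where room temperature replicate 3 was the highest of its group. Every one of these endothelial markers was lower in room temperature replicates 1 and 2 than in any other library, while alveolar markers were mixed. Without replicate 3 the same 9 members were called lower.

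Upstream sequence was available to show for 4 members, namely the basal chain Krt5, the pair Krt8 and Krt18 and the least changed chain, Krt7. The RefSeq table on GRCm38.p6 held promoters for 5 of the 10 members, and each stretch below is read 5′ to 3′ on the gene's strand from 250 bases before the RefSeq start. It ends before the first base of either the RefSeq transcript or the principal GENCODE M21 transcript. This rule left no base of the remaining promoter, which is not shown. Capitals mark matches to the TATA box TATAAA, to the Sp1 type motif GGGCGG, to the AP-1 type motif TGACTCA or to the p53 family half-site consensus, searched on both strands. The lines give Krt5 (chr15:101712906-101713155, minus strand), Krt7 (chr15:101412153-101412401, plus strand), Krt8 (chr15:102004483-102004592, minus strand) and Krt18 (chr15:102027966-102028179, plus strand).
Krt5: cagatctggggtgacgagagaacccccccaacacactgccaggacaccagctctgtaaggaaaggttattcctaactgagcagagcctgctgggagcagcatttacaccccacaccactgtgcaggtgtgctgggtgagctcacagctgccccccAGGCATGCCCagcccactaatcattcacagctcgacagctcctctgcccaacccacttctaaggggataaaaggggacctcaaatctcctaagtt
Krt7: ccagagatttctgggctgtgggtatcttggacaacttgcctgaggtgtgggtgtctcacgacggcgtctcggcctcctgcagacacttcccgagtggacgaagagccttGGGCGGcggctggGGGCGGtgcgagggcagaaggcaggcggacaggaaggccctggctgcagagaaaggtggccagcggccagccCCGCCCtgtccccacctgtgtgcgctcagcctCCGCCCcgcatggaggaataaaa
Krt8: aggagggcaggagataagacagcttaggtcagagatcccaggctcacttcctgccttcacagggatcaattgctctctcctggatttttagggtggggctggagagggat
Krt18: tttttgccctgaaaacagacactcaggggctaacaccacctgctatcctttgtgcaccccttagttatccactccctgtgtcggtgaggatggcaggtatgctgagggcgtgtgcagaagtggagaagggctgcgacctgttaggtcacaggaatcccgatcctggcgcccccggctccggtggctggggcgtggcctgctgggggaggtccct
Krt5 held 1 match, the 10 letters AGGCATGCCC of the p53 family half-site consensus, the motif of the family that p63 belongs to, at 95 to 86 bases before the start. Krt7 held 4 matches to GGGCGG. Neither Krt8 nor Krt18 held any match in the stretch shown (110 and 214 bases) or in the full 250 bases searched. Of 32851 promoter windows of 250 bases in the table, 7.13% held the half-site, 32.7% the Sp1 type motif, 12.4% the TATA box and 4.46% the AP-1 type motif, so a match is a description of these letters and not a binding site. Krt8 and Krt18 are transcribed away from each other, with their starts 23.7 kb apart in GENCODE M21.

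Basal cell transcripts were nearly gone from the cold libraries. Trp63 (ENSMUSG00000022510, chromosome 16, 25683763 to 25892102 in GENCODE M21 on GRCm38), the factor that maintains basal cell identity, stood at 0.0630, 0.0479 and 0.0451 scaled RPKM in room temperature replicates 1 to 3. In cold replicates 1 to 3 it stood at 0.00267, 0.000896 and 0.00179. The groups did not overlap, and the mean went from 0.0520 ± 0.00959 to 0.00178 ± 0.000885, a log2 change of −3.71 ± 0.22 SE. Its RPKM is divided by a very long span, and 1232 reads were recovered at room temperature and 42 in cold. The deposited value is rounded to 3 decimals, which for Trp63 is 3.41 to 3.66 reads either way in a cold library. Its promoters for the full-length and the shorter protein forms share this gene row, so the forms cannot be told apart.

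Krt5 and Krt15 had the lowest log2 changes of the 9 members tested with 0.5 RPM added. That order depends on the scale, since the log2 change of Krt17 was below the log2 change of Krt15 on log2 of RPKM plus 0.01 (−6.16 against −5.70) and with voom (−7.41 against −6.04). Krt5 (ENSMUSG00000061527, chromosome 15, 101707070 to 101712898), the type II chain that defines basal cells, stood at 16.7, 8.61 and 7.36 at room temperature and at 0.158, 0.00448 and 0.140 in cold. Every cold library lay below every room temperature library, and cold replicate 2 held about 1 read against 34 and 32 in replicates 1 and 3. The log2 change of Krt5 was −5.91 ± 0.46 SE. Krt15 (ENSMUSG00000054146, chromosome 11, 100131758 to 100135928), a type I chain of basal and early progenitor cells, stood at 48.8, 30.7 and 15.1 against 0.637, 0.203 and 0.586, a log2 change of −5.68 ± 0.50 SE. Room temperature replicate 1 was the highest and cold replicate 2 the lowest for both genes.

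Krt17 and Krt4 passed the low-value filter through the room temperature libraries alone. Krt17, a type I chain of basal cells that injury also induces, stood at 1.92, 1.23 and 0.958 at room temperature and at 0.00533, 0 and 0.0161 in cold. These are 743 reads against 4, and the log2 change of −3.68 ± 0.25 SE is held down by the 0.5 RPM added before the log. Krt4, the mucosal chain, stood at 0.752, 0.306 and 0.319 against 0.00444, 0 and 0.0161, which is 317 reads against 5. Its log2 change was −2.53 ± 0.31 SE. Cold replicate 2 was listed at 0 for both genes. Krt13, the usual partner of Krt4, is no member and did not follow it. Its levels of 0.0412, 0.0678 and 0.0798 at room temperature and 0.0196, 0.117 and 0.0725 in cold overlapped, with a log2 change of 0.02 ± 0.23 SE (adjusted p = 0.93 by limma).

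Krt14, the partner of Krt5 in basal cells, was scarce in every library. It stood at 0.118, 0.0327 and 0.190 at room temperature and at 0.00622, 0.00627 and 0.0116 in cold, which is 56 reads against 4. The groups did not overlap, but Krt14 missed the filter of 10 reads in at least 3 libraries and was not tested. Without that filter its log2 change was −0.84 ± 0.24 SE on the RPM plus 0.5 scale. Relative to Krt5 in the same library, Krt14 stood at 0.00707, 0.00380 and 0.0258 at room temperature, while Krt15 stood at 2.93, 3.57 and 2.06. Replicate 3 had the highest Krt14 and the lowest Krt15.

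**Figure D1:**
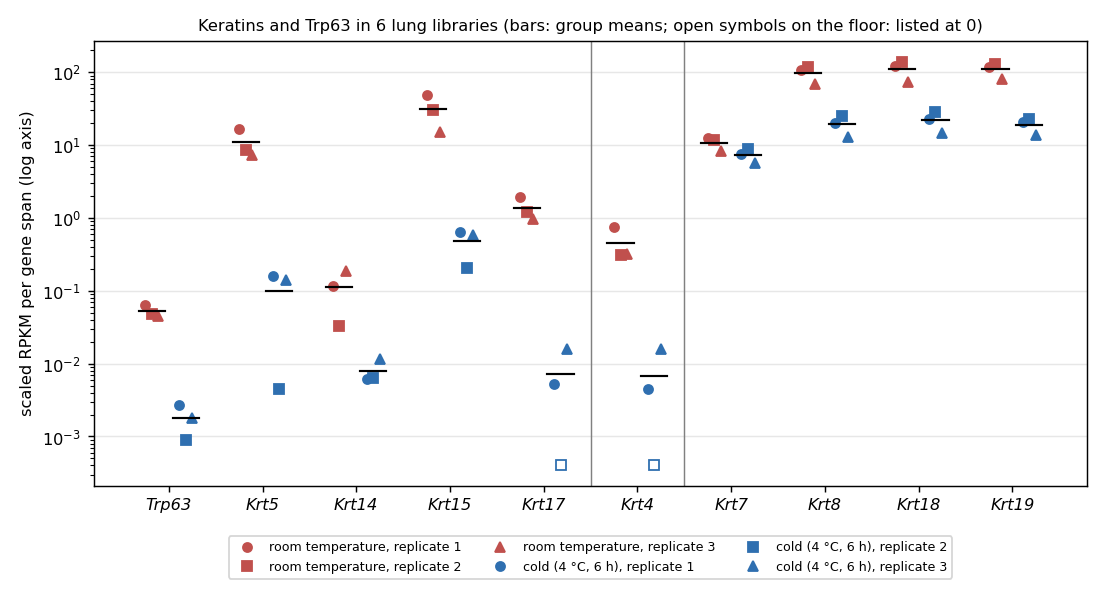
Scaled RPKM per gene span (log axis) of the 10 genes in 3 room temperature and 3 cold libraries, with symbols for replicates, bars for group means and open symbols at the floor for values listed at 0. Basal genes stand left, Krt4 in the middle and simple keratins right; only Krt7 overlaps between groups, and cold replicate 2 is lowest for Krt5 and Krt15 yet highest for Krt8, Krt18 and Krt19.

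The simple keratins were lower in cold by a smaller factor and stayed abundant. Krt8 (ENSMUSG00000049382, chromosome 15, 101996698 to 102004482), the type II chain of simple epithelia, stood at 106, 118 and 68.4 at room temperature and at 20.2, 24.9 and 13.1 in cold. The means were 97.3 ± 25.7 and 19.4 ± 5.94, a log2 change of −2.34 ± 0.29 SE. Krt18 (ENSMUSG00000023043, chromosome 15, 102028180 to 102032027), its type I partner, stood at 123, 140 and 74.2 against 23.1, 28.5 and 14.6, a log2 change of −2.34 ± 0.32 SE. Krt19, a small type I chain without a tail domain that basal cells also make, stood at 118, 131 and 79.8 against 20.9, 22.9 and 13.7, a log2 change of −2.52 ± 0.25 SE. The groups of these 3 genes did not overlap, and replicate 3 was the lowest library within each group.

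Krt7, a type II chain of glandular and alveolar epithelium, differed from the other simple keratins in its overlap between groups. It stood at 12.4, 11.8 and 8.35 at room temperature and at 7.65, 8.93 and 5.67 in cold, so cold replicate 2 lay above room temperature replicate 3. The log2 change of Krt7, −0.55 ± 0.21 SE, was past the threshold (limma adjusted p = 0.047), but with the authors' library totals as the only scaling it was −0.22 (adjusted p = 0.32). It also missed the threshold without room temperature replicate 1 (adjusted p = 0.13), room temperature replicate 2 (0.11), cold replicate 1 (0.087) or cold replicate 3 (0.15), and without the low-value filter (0.054). Gm671, an annotated antisense gene, overlaps Krt7, and the sources do not say if strand was kept.

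Counted together, 9 of the 10 members were tested and 9 were called lower, beside 35% of all genes tested (70.5% were called in either direction). The room temperature libraries lay above every cold library for 9 of the 10 members, beside 37.8% of all genes. The median log2 change of the 9 was −2.53. These counts describe members chosen for this contrast, and 4 of them (Trp63, Krt5, Krt17 and Krt4) met the filter only with the room temperature libraries. At a q value under 0.05, 9 members were lower in the authors' deposited table, beside 12% of all rows, and the exception was Krt7.

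Within single libraries Krt18 kept a steady proportion to Krt8, and the other chains compared with Krt8 did not. These ratios are free of library scaling. The ratio of Krt18 to Krt8 was 1.16, 1.19 and 1.08 at room temperature and 1.14, 1.15 and 1.12 in cold (means 1.15 ± 0.0559 and 1.14 ± 0.0146). The ratio of Krt19 to Krt8 was 1.13 ± 0.0298 against 1.00 ± 0.0696, with every cold library below every room temperature library. The ratio of Krt7 to Krt8 was 0.117, 0.1002 and 0.122 at room temperature and 0.379, 0.360 and 0.435 in cold, so relative to Krt8 the cold libraries held more Krt7. The ratio of Krt5 to Krt8 went the other way, from 0.157, 0.0733 and 0.108 to 0.00783, 0.00018 and 0.0107. That of Krt15 to Krt8 went from 0.461, 0.261 and 0.221 to 0.0316, 0.00819 and 0.0449.

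**Figure D2:**
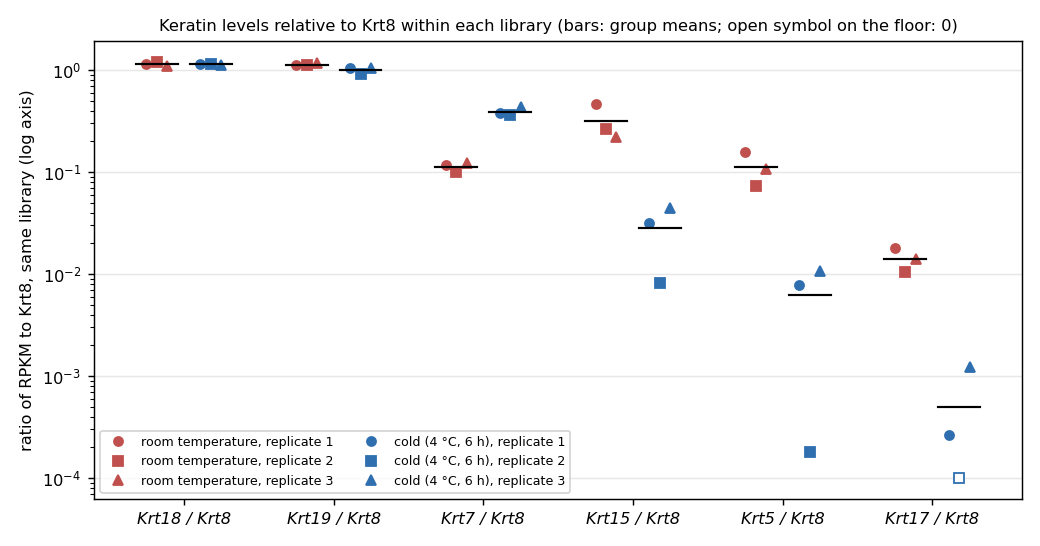
Ratio of the RPKM of 6 keratins to that of Krt8 in the same library (log axis), with symbols for replicates, bars for group means and an open symbol for a ratio of 0. Krt18 stays between 1.08 and 1.19 in all 6 libraries, Krt7 is higher in the 3 cold libraries, and Krt15, Krt5 and Krt17 are lower in them.

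As a share of the reads of 8 keratins (Krt5, Krt14, Krt15 and Krt17 as basal, Krt7, Krt8, Krt18 and Krt19 as simple), basal chains took 11.2% (95% exact binomial interval 11.0 to 11.4), 6.36% (6.23 to 6.50) and 6.49% (6.31 to 6.69) in room temperature replicates 1 to 3. In cold replicates 1 to 3 they took 0.647% (0.543 to 0.766), 0.138% (0.0947 to 0.193) and 0.897% (0.751 to 1.06). The intervals cover counting error only. The means were 8.02% ± 2.76 and 0.561% ± 0.387, so the difference exceeded the spread within either group, and cold replicate 2 held the smallest share. On the log2 scale the mean change was −4.03 for the 4 basal and −1.94 for the 4 simple chains. The basal minus simple keratins, difference of the mean log2 change, was −2.09, and it depends on the value added before the log, at −3.18 with 0.1 RPM and −1.04 with 2 RPM.

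Levels per kilobase of mature transcript allow the genes to be ranked, if the reads lie in exons. In scaled RPM per kilobase of the principal transcript the room temperature order was Krt19 (547 ± 133), Krt8 (387 ± 102), Krt18 (301 ± 91.7), Krt15 (77.4 ± 41.3), Krt7 (51.0 ± 10.2), Krt5 (28.9 ± 13.4), Krt17 (4.24 ± 1.53), Trp63 (2.30 ± 0.425), Krt4 (1.33 ± 0.738) and Krt14 (0.293 ± 0.203). Clear steps, where the SD ranges of neighbours did not overlap, lay below Krt18, below Krt5 and above Krt14. In cold, Krt7 (34.9 ± 7.73) ranked next after Krt19 (95.5 ± 24.3), Krt8 (77.0 ± 23.6) and Krt18 (59.1 ± 18.8). Krt15 (1.17 ± 0.581) and Krt5 (0.267 ± 0.223) followed, and the SD ranges of Krt7 and Krt15 and of Krt15 and Krt5 did not overlap. The lowest cold levels, of Trp63, Krt17, Krt14 and Krt4 (0.0790 down to 0.0199), could not be ordered. Krt5 and Trp63 could not be ordered in cold either, since their SD ranges overlapped and Krt5 was the higher in only 2 libraries.

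Some keratins resemble each other closely enough to share reads, and the authors' handling of such reads is unknown. Of the 50-base words in the transcripts of Krt14, 13.9% also occur in transcripts of Krt16 or Krt17, and 12.2% of those of Krt5 in Krt6a, Krt6b or 3 further genes. For Krt8 the share was 29.7%, mostly with the pseudogene Krt8-ps, which has no row in the table. Krt17 shared 3.99%, Krt15 0.64%, Krt18 0.72% and Krt7 0.92%, and Krt4, Krt19 and Trp63 shared none. Levels of Krt8, Krt5 and Krt14 are uncertain for this reason, and the shares do not say by how much. At room temperature Krt16 and Krt17 held 4 and 743 reads beside 56 of Krt14. Krt6a and Krt6b held 7 and 3 there beside 7112 of Krt5.

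The table holds 29 other keratin genes, and 9 were tested, of which 4 fell, 2 rose and 3 were not called. Among all genes tested 35% were lower and 35.5% higher. The median log2 change of these 9 keratins was −0.37, against 0.003 for all genes. Krt1, a type II chain of the outer epidermis, fell from 0.800, 1.35 and 0.573 to 0.0862, 0.0305 and 0.0474 (log2 change −2.70 ± 0.30 SE, adjusted p = 0.00019). Krt1 met the filter only with the room temperature libraries. Krt10, its epidermal partner, fell less, from 0.736, 0.788 and 0.735 to 0.422, 0.392 and 0.396 (log2 change −0.74 ± 0.15 SE, adjusted p = 0.0030). Krt23, a type I chain, and the hair keratin Krt83 also fell, Krt23 by 1.18 on the log2 scale and Krt83 from 0.397, 0.439 and 0.299 to 0.0888, 0.116 and 0.0698. Krt79, a type II chain known from hair follicle ducts, rose from 0.0996, 0.0912 and 0.192 to 0.410, 0.753 and 0.685 (log2 change 1.94 ± 0.29 SE, adjusted p = 0.00074). Krt80, another type II chain, rose from 0.731, 0.733 and 0.555 to 1.86, 1.19 and 1.57 (log2 change 1.15 ± 0.18 SE, adjusted p = 0.00098). All cold libraries lay above all room temperature libraries for Krt79 and Krt80. Krt222, Krt9 and Krt13 were not called, at −0.37, −0.15 and 0.02, though the log2 change of Krt222 passed without room temperature replicate 2 (−0.71, adjusted p = 0.0088). The 20 untested keratins held 2 to 38 reads each over all 6 libraries, and 8 of them had 0 reads in the cold libraries. Krt6a and Krt6b, injury keratins that pair with Krt16 or Krt17, held 7 and 3 reads at room temperature and 0 in cold.

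**Figure D3:**
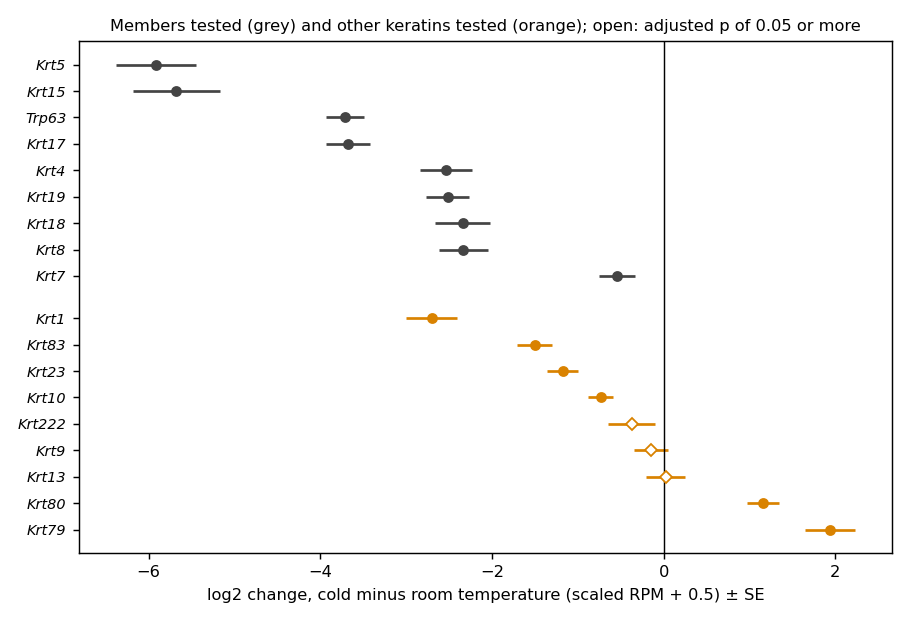
Log2 change (cold minus room temperature, scaled RPM plus 0.5) ± SE of the 9 members tested (grey) and the 9 other keratins tested (orange), with open symbols where the adjusted p was 0.05 or more. On this scale Krt5 and Krt15 lie near −6, Krt8, Krt18 and Krt19 near −2.4, and Krt79 and Krt80 are the keratins above 0 that passed.

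Other genes that mark basal cells were mostly lower where tested. Of 18 listed genes 16 were tested, of which 12 fell and 2 rose, with a median log2 change of −1.81, beside 35% lower and 35.5% higher among all genes. Aqp3, a water and glycerol channel of basal cells, fell from 12.2, 10.3 and 4.88 to 0.397, 0.150 and 0.350 (log2 change −4.52 ± 0.41 SE, adjusted p = 0.00013). Fat2, a giant cadherin of squamous and basal epithelium, Zfp750, a target of p63 in epidermis, and the airway factor Sox2 fell by 3.11, 2.86 and 3.02 on the log2 scale. Cdh3, P-cadherin, fell from 0.0756, 0.0876 and 0.0808 to 0.00977, 0.00448 and 0.00805, and Perp, a desmosomal p63 target, from 6.47, 6.56 and 4.40 to 1.29, 1.31 and 1.15. Sfn, which other epithelia also express, was called lower (−0.75), but not with the deposited scaling, under which 10 genes of the list were lower. Ngfr, Dapl1, Dlk2 and Cdh3 met the filter only with the room temperature libraries. Snai2 rose from 0.585, 0.412 and 0.72 to 1.72, 1.36 and 1.36 and Bcl11b by 1.17 on the log2 scale, though with a replicate block Bcl11b was not called (limma adjusted p = 0.060 for the log2 change of Bcl11b). As background, fibroblasts express Snai2 and T cells Bcl11b. Jag2 (−0.24) and Trim29 (−0.56) were not called.

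Hemidesmosome and basement membrane genes split, although their best known epithelial site is the foot of the basal cell. Of 11 genes tested 7 rose, 3 fell and 1 was not called (median 0.46), beside 35.5% higher and 35% lower among all genes. Itgb4, the integrin chain of hemidesmosomes that binds keratin filaments through plectin, fell from 2.82, 3.11 and 1.90 to 0.455, 0.492 and 0.352 (log2 change −2.53 ± 0.21 SE, adjusted p = 7.0e-05). Col17a1, the transmembrane collagen of hemidesmosomes, and Fermt1, an integrin activator of epithelia, fell by 2.45 and 1.74. Itga6, the partner of Itgb4 that endothelium also makes, rose from 0.296, 0.16 and 0.229 to 0.424, 0.388 and 0.578 (log2 change 1.03 ± 0.24 SE, adjusted p = 0.0067). The laminin chain gene Lama3 rose by 3.03 and Lamb3 by 0.46 on the log2 scale. Col7a1, the collagen of anchoring fibrils, rose by 1.17, and the cytolinker Plec was not called (−0.06).

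Desmosome genes, whose proteins anchor keratin filaments at cell contacts, were mostly lower. Of 12 genes 11 were tested, with 9 lower and 2 higher (median −1.43), beside 35% lower and 35.5% higher among all genes. Pkp1 and Dsc3, counted among the lower, met the filter only with the room temperature libraries. Dsp, desmoplakin, the link from desmosome to keratin, fell from 2.97, 2.34 and 2.25 to 0.748, 0.762 and 0.706 (log2 change −1.75 ± 0.12 SE, adjusted p = 5.2e-05). Pkp1, plakophilin of stratified epithelia, fell from 0.0664, 0.0351 and 0.0315 to 0.000888, 0.000896 and 0.00179, and Dsc3, a desmocollin of basal cells, was listed at 0 in the 3 cold libraries. The desmosomal cadherins Dsc2 and Dsg2 of simple epithelium fell by 2.87 and 2.10. Ppl, periplakin, and Pkp4 rose by 0.54 and 0.37. Jup, plakoglobin, was called lower (−0.30) with composition scaling and stood at 0.03 with the deposited scaling.

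Simple epithelium genes moved with Krt8 and Krt18. Of 21 tested 18 fell, 1 rose and 2 were not called (median −1.62), beside 35% lower and 35.5% higher among all genes. Cldn4, a tight junction claudin, fell from 16.0, 15.4 and 12.7 to 1.63, 1.78 and 1.64 (log2 change −2.93 ± 0.13 SE, adjusted p = 4.7e-05). Epcam, an adhesion molecule of epithelia, fell by 2.01 and Cdh1, E-cadherin, by 1.63 on the log2 scale. The factors Elf3 and Grhl2 fell by 2.77 and 1.62, and the splicing regulator Esrp1 by 1.55, whereas its relative Esrp2 rose by 0.43. Crb3 (−0.31) and Cgn (−0.17) were not called. Of other intermediate filament genes 10 of 14 were tested, with 7 lower and 2 higher (median −0.61), beside these same shares of all genes. With the deposited scaling 4 were lower. Prph, counted among the 7, met the filter only with the room temperature libraries. Des, desmin of muscle, fell by 3.08, and the mesenchymal and endothelial filaments Vim and Nes rose by 0.95 and 2.51. The log2 change of Vim was not past the threshold without room temperature replicate 1 (limma adjusted p = 0.063), cold replicate 1 (0.096) or cold replicate 3 (0.086). Lmna, a nuclear lamin, was not called (−0.42).

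**Figure D4:**
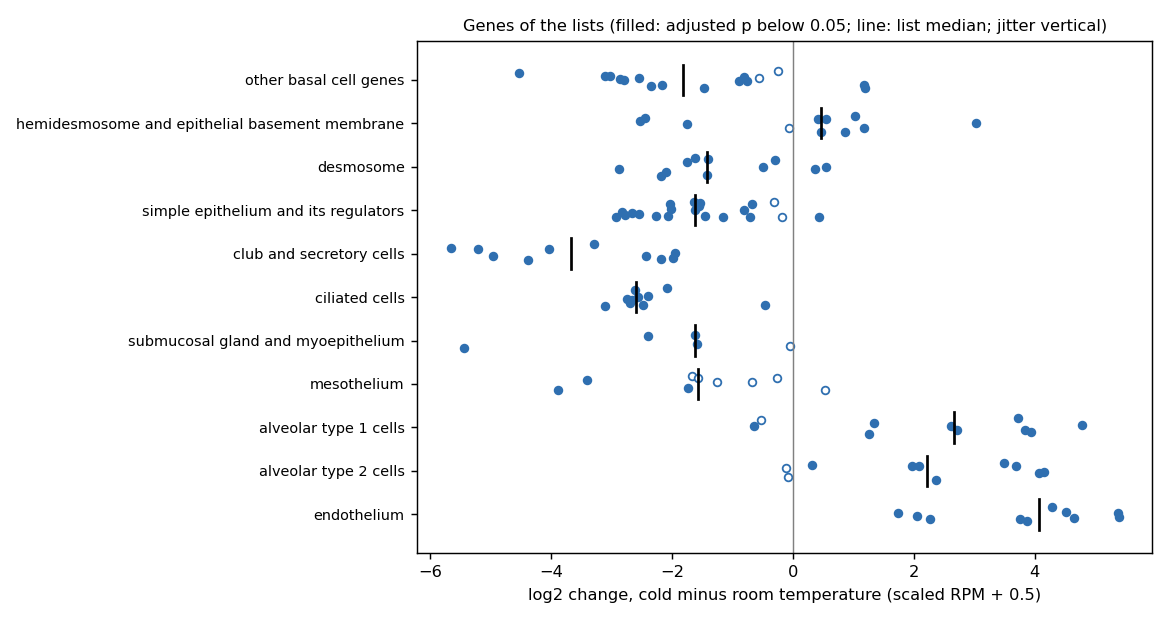
Log2 change (cold minus room temperature) of each tested gene in 11 lists, with filled points for an adjusted p under 0.05, open points for others and a line at each list's median. Medians lie below 0 for the airway, gland and mesothelial lists and for basal, desmosome and simple epithelium genes, at 0.46 for hemidesmosome genes, and above 2 for the alveolar and endothelial lists.

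Markers of the cells that make these keratins moved between the groups as well. The counts below stand beside 35% lower and 35.5% higher among all genes tested. All 10 club and secretory cell markers fell (median −3.66), with summed levels of 18994 to 26218 at room temperature and 4723 to 5438 in cold, and none was at 0. Of 10 ciliated cell markers 10 were called lower (median −2.59), with sums of 299 to 466 against 57.5 to 88.5. The count was 9 with the replicate block and under most other alternatives, where Ccdc39, whose groups overlap, was not called. Of 10 alveolar type 1 markers 8 rose and 1 fell (7 and 2 with the replicate block; sums 69.4 to 129 against 291 to 380), and of 10 type 2 markers 8 rose and 0 fell (800 to 1512 against 3086 to 4340). These alveolar cells also make Krt7, Krt8, Krt18 and Krt19. In room temperature replicate 3, Sftpc, the surfactant gene of type 2 cells, stood at 647 against 87.4 and 47.5 in replicates 1 and 2. This library was the lowest of its group for Krt7, Krt8, Krt18 and Krt19. It was also the lowest for Trp63, Krt5, Krt15 and Krt17, but not for Krt4 or Krt14. The surfactant genes Sftpa1 (463, 608 and 565 in room temperature replicates 1 to 3) and Sftpb (94.8, 87.4 and 129) had no gap like that of Sftpc. Neither was called between groups. Of the same type 2 list, Lamp3 (0.113, 0.0538 and 0.763), Napsa (0.412, 0.266 and 2.09) and Slc34a2 (0.944, 0.743 and 3.35) were also far higher in replicate 3. Abca3 (2.33, 2.41 and 2.48) and Lyz2 (144, 88.8 and 147) were not. The part of these cell types in the keratin differences was not tested.

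Mesothelium, glands, cartilage, squamous mucosa and thymus were also looked at, since keratins occur in or beside them. Of 9 mesothelial markers tested 3 fell and 0 rose, beside 35% lower and 35.5% higher among all genes. The gland, cartilage and thymic counts below stand beside the same shares. Sums of the mesothelial markers were 16.6 to 35.8 against 2.25 to 2.68. The number of mesothelial markers that rose was 1 with the replicate block or the deposited scaling and 2 without room temperature replicate 3. Msln, mesothelin, fell from 16.0, 15.6 and 20.8 to 1.06, 1.21 and 1.02, whereas Upk3b stood at 0.361, 0.174 and 11.6 against 0.156, 0.469 and 0.255. Of 5 tested gland and myoepithelial markers 4 fell (sums 56.6 to 88.6 against 6.32 to 11.2). Most of these sums came from Ltf and from Acta2, the smooth muscle actin gene. Lpo, Bpifa2 and Oxtr were not tested, with 7, 4 and 2 reads at room temperature and 0, 12 and 6 in cold. Of the cartilage list, Chad, a cartilage matrix protein gene, fell from 63.5, 78.4 and 41.8 to 6.65, 4.38 and 4.19, while Acan was at 0 in all 6 libraries and Col2a1 at or under 0.00622. That list had 2 lower and 1 higher of 4 tested (sums 43.0 to 79.7 against 4.43 to 6.96). Of 9 squamous and hillock genes tested 3 fell and 2 rose (median 0.02), beside 35% lower and 35.5% higher among all genes. Their sums were 24.7 to 26.3 against 15.2 to 20.7, and under the replicate block 1 in place of 2 was higher. Lypd3, counted among the lower, met the filter only with the room temperature libraries. Krt6a, Krt6b and Sprr3 were at 0 in cold. Foxn1, the defining factor of thymic epithelium, was at or under 0.00351. Of 5 tested thymic genes 1 rose and 2 fell (sums 1.49 to 1.84 against 2.98 to 3.36). Most of each cold sum came from Dll4, the gene that rose, at 0.169, 0.109 and 0.78 against 2.74, 2.35 and 2.38. Those that fell were Ly75 and Tbata, so the higher cold sums do not describe the list as a whole. The part of each of these tissues in the keratin differences was not tested.

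The genes whose profile lay nearest to Krt5 and Krt8 differed. Nearness was the distance between log2 profiles over the 6 libraries, each centred on its own mean, among 13028 genes. Nearest to Krt5 were Krt15 (0.659), then Ltf (1.15), Bpifb1 (1.19) and Bpifa1 (1.21), secreted antimicrobial genes of airway and glands, and the muscle actin Acta1 (1.30). Like Krt5, Bpifa1 had its lowest value in cold replicate 2, at 10.5 against 40.8 and 37.8 in replicates 1 and 3. Nearest to Krt8 were Krt18 (0.103), Scand1 (0.222), Klhdc8a (0.262), Krt19 (0.268) and Stard10 (0.273). As 6 libraries in 2 groups set these distances, they describe likeness in this contrast and little beyond it.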

How the data were processed

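Lung RNA of 6 samples was sequenced after NEBNext Ultra II library preparation, per the labels' protocols. The deposited values are RPKM per gene made by the authors, and the submitters' processing notes name build mm10. No aligner, counter or annotation is named in the sources used here. The table's name speaks of raw counts, yet it holds fractional values. RPKM times the GENCODE M21 gene span fell on steps of whole reads (phase coherence 0.786 to 0.836, and at most 0.163 with exon length), which gave depth and read numbers. Of the low values, 83.2% to 86.1% were whole within 0.1 reads. The deposited log2 fold change and the deposited p-value and q-value are the authors', and their test is not stated.

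The design allowed for RPM from spans. Composition factors for RPM were trimmed means of M values without weights (30% and 5% trimmed) and 0.5 was added before the log2. limma 3.58.1 in R 4.3.3 (trend, robust) was fitted with group as the only term, two-sided. Genes needed the equivalent of 10 reads in 3 libraries and 15 reads in all. This left 15238 genes, and 92 rows without a span were left out. Simulated data with known changes in a small part of the genes, as many up as down, were used to check the fit. That setting differs from these data, where 70.5% of genes were called, so it cannot speak to scaling or error rates here. The members and lists were chosen with earlier results of these data known. Named genes are the members, all tested keratins, list genes by smallest p or by being uncalled, some added for their role after values were seen, and the 5 nearest profiles. Deviations of same-numbered libraries correlated weakly (r across genes 0.115, 0.149 and 0.155). Differently numbered libraries were not compared, so this does not show a pairing. The replicate number, which comes from the labels, is not in the main fit. Values with it as a block are given where a call changed. No libraries agreed within sampling noise (chi-square per degree of freedom 15.8 to 88.2). Alternatives covered scaling, the value added, the filter, voom on recovered reads, a replicate block and leaving out each library. Some genes of the lists are counted but not reported here by name.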

Additional observations from a re-analysis of the deposited data

How the results depend on the processing

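The count of members called lower was 8 to 9 under every alternative run, and Krt7 was the member whose call was lost. Without the low-value filter and without room temperature replicate 2 the count was 9 with Krt14 called in place of Krt7. The basal minus simple keratins, difference of the mean log2 change (−2.09), stayed below 0 in each alternative. It was −3.18 with 0.1 RPM added, −1.04 with 2 RPM, −3.65 on log2 of RPKM plus 0.01 and −4.10 with voom, and Krt14 and Krt17 hold 4 reads each in cold. Leaving out 1 library gave −2.42 to −1.67. Over all genes the deposited scaling moved the median log2 change to 0.29 and the share of calls that were higher from 50.4% to 65.1% (7034 higher, 3766 lower).

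Of the list counts, the number of other basal genes that rose was 1 with 0.1 RPM added, 1 with the replicate block and 1 to 2 with a library left out, where Bcl11b was lost. The number of desmosome genes that rose was 1 to 2 and of simple epithelium genes 0 to 1 with a library left out. With the replicate block 9 members were lower. Among the genes of all lists it otherwise ended the calls of Ly6d, Ccdc39 and Igfbp2 and added those of Aqp5 and Upk1b. The log2 change of Jup reversed to 0.03 with the deposited scaling and 0.03 on log2 of RPKM plus 0.01, and the log2 change of Rspo1, which ranged from −0.81 to 0.58 with a library left out, reversed to 0.58 without room temperature replicate 3; the cause was not tested. Depth limits Krt14, with 4 reads in cold, and Krt17 and Krt4, with 4 and 5.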
